A study of Mus musculus with 7 samples.

Results

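The genes described here are 32 mouse genes of fatty acid oxidation and ketone body metabolism, chosen by name for the steps their enzymes carry out, out of 49315 mouse genes counted. They were measured in pancreatic islets of 7-day-old mice by sequencing of ribosome-depleted total RNA. The 4 βNrf2KO pools (numbers 1, 2, 3 and 4) came from mice with a β-cell-specific deletion of Nrf2, and the 3 control pools (numbers 1, 2 and 4) came from Nrf2lox/lox mice, in which the same gene carries loxP sites and is intact. The protocol gives RNA of 5 animals to each pool, although the sample titles number them as mice. All 7 pools are whole islets, so every value mixes β-cells, in which Nrf2 was deleted, with the other cells of the islet. The labels do not name the promoter that drives Cre recombinase, and the controls had no Cre counts, so an effect of Cre itself cannot be told apart from the deletion. Nrf2, encoded by Nfe2l2, is a transcription factor that cells use against oxidative stress, and the study asks how it acts on the growth of β-cells in the newborn.

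Fatty acids are first joined to coenzyme A by acyl-CoA synthetases, and long chains then enter mitochondria through the carnitine shuttle. There each turn of β-oxidation runs through an acyl-CoA dehydrogenase, a hydratase, a second dehydrogenase and a thiolase, and the electrons of the first step pass through electron transfer flavoprotein to the respiratory chain. Peroxisomes shorten very long and branched chains with their own enzymes, and ketone bodies made elsewhere in the body can be turned back into acetyl-CoA in mitochondria. Newborn mice live on fat-rich milk, and in β-cells fatty acid oxidation stands beside glucose oxidation as a fuel.

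Total counts were 18187382 to 20847474 in the βNrf2KO pools and 21603654 to 25373105 in the control pools. Nfe2l2 itself had 66.9, 57.8, 67.4 and 58.7 CPM (counts scaled to a common library total with TMM normalization factors) in βNrf2KO pools 1 to 4, against 86.2, 43.2 and 48.5 CPM in control pools 1, 2 and 4. The pools of the groups overlapped, with a log2 fold change (βNrf2KO minus control) of 0.08 ± 0.23 (SE, edgeR adjusted p = 0.911). The labels do not name the deleted exons and the count covers the whole gene, while Cre had 23 to 73 counts in the βNrf2KO pools and 0 in each control pool. RNA of the mitochondrial genome stood apart in control pools 1 and 2: it took 27.7%, 22.4%, 20.65% and 10.02% of counts in βNrf2KO pools 1 to 4, against 43.0%, 51.8% and 14.6% in control pools 1, 2 and 4. The 8 β-cell markers (Ins1, Ins2, Iapp, Slc2a2, Mafa, Pdx1, Nkx6-1 and G6pc2) were all above 1 CPM and summed to 33216 to 45664 CPM in βNrf2KO pools, against 26735, 16557 and 47274 CPM in control pools 1, 2 and 4. The sum is mostly Ins2 and Ins1, which went opposite ways. Ins2 averaged 26842 CPM in βNrf2KO and 15992 CPM in control islets, and Ins1 averaged 6619 CPM in βNrf2KO and 10491 CPM in control islets. Mafa was lower in βNrf2KO as well, and the other markers were higher.

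All 32 genes passed the filter on low counts, and none differed past the threshold of an edgeR adjusted p of 0.05. The same held for all genes, of which 0 of 19893 tested (0%) passed, with a smallest adjusted p of 0.571. In βNrf2KO islets 19 of the 32 genes were higher and 13 were lower; their log2 fold changes had a median of 0.05 and ran from -1.22 to 0.56. Over all genes tested, 9818 were higher and 10075 lower, and the median was -0.01. At an unadjusted p under 0.05, 1 of the 32 genes was higher (Acadsb) and 0 were lower, where 3.23% of all genes tested were higher and 5.23% lower. The βNrf2KO pools lay wholly above the control pools for 2 genes, Acadsb and Hadhb, and wholly below for none, against 3.19% and 3.81% of all genes. These shares lie near the background. The test was limited at this replication: in simulated data of the same design it called 17 of 50 genes doubled and 16 of 50 genes halved in βNrf2KO (fold 2 and 0.5). It called 48 of 50 genes at a fold of 4, 40 of 50 at a fold of 0.25 and 6 of 19155 unchanged genes. The changed genes were drawn above a mean of 1 CPM, and shifts shared by many genes of a pool were not simulated.

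**Figure D1:**
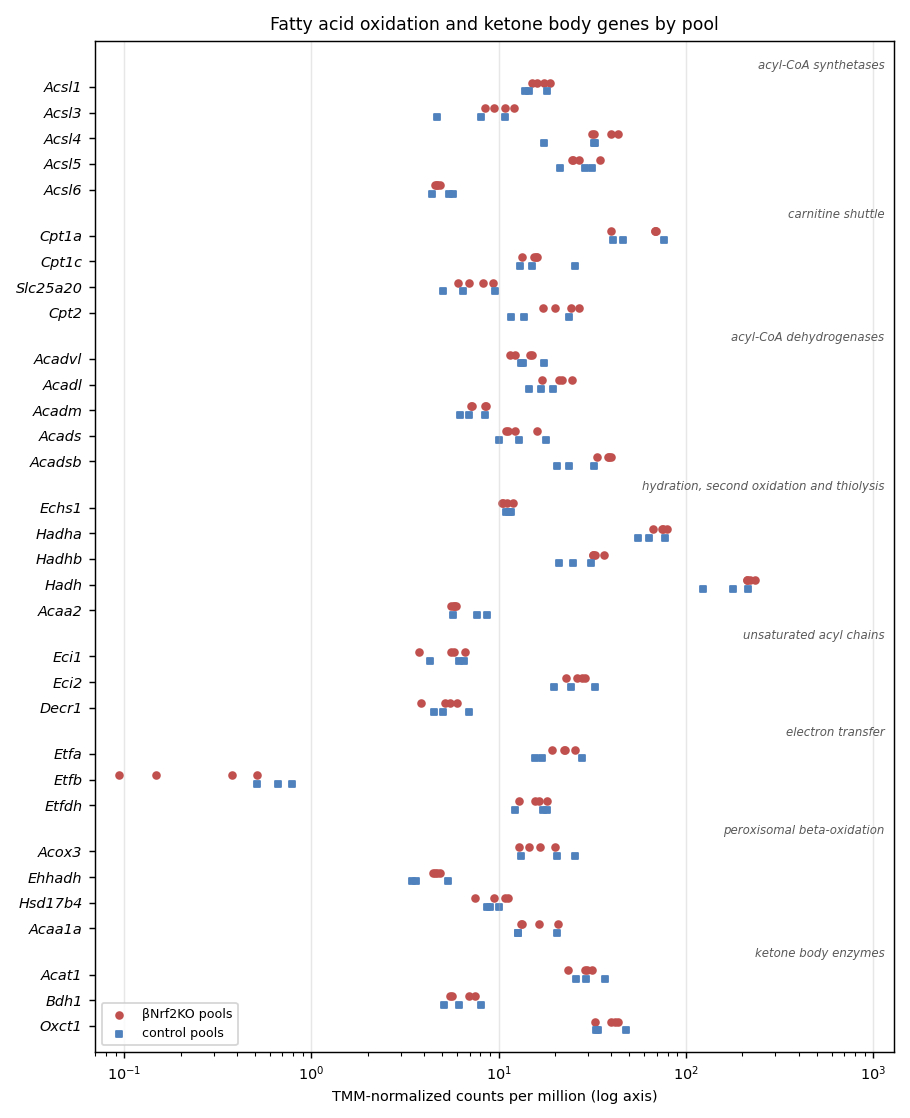
TMM-normalized CPM of the 32 genes on a log axis, with 1 red circle for each of the 4 βNrf2KO pools above 1 blue square for each of the 3 control pools. Genes are grouped by the step they act in; the groups overlap in 30 genes, and Acadsb and Hadhb have all 4 βNrf2KO pools above all 3 control pools.

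Levels between genes were compared as CPM per kilobase of annotated exon. Hadh stood far above the others on this scale, at 44.1 ± 2.13 in βNrf2KO and 34.5 ± 9.20 in control islets (SD, n = 4 and 3), rank 479 of the 19893 genes tested. Cpt1a followed with a mean over the 7 pools of 13.6, then Etfa with 11.7 and Oxct1 with 10.5. The lower end held Acsl6 at 0.494 and Etfb at 0.380, and the median gene of the 32 was at 4.39, against 2.65 over all genes tested. The lengths cover the exons of every annotated transcript, 8286 bases for Echs1 and 8730 for Hadha, so a gene with many long transcripts is placed low on this scale.

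Among the acyl-CoA synthetases, which activate long-chain fatty acids, 4 of 5 were higher in βNrf2KO islets and 1 was lower; the median log2 fold change was 0.11. Acsl4, which prefers arachidonic acid, had 31.5, 39.7, 43.2 and 32.3 CPM in βNrf2KO pools 1 to 4, against 32.8, 17.4 and 32.3 CPM in control pools 1, 2 and 4. The groups overlapped, and control pool 2 alone was low. The log2 fold change was 0.41 ± 0.23 (SE, edgeR adjusted p = 0.588), and leaving out a control pool gave 0.17 (pool 2) to 0.55 (pool 1). Acsl3, a synthetase of the endoplasmic reticulum and lipid droplets, had the same low pool: it averaged 10.2 ± 1.59 CPM in βNrf2KO and 7.87 ± 3.09 CPM in control islets (SD, n = 4 and 3), with 4.69 CPM in control pool 2. Its log2 fold change was 0.37 ± 0.28, and leaving out a control pool gave 0.11 (pool 2) to 0.66 (pool 1). Acsl1 and Acsl5 had log2 fold changes of 0.11 ± 0.18 and 0.03 ± 0.20. Acsl6, known mainly from brain, averaged 4.69 ± 0.135 CPM in βNrf2KO and 5.18 ± 0.659 CPM in control islets.

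The carnitine shuttle carries long acyl chains across the mitochondrial membranes, and 3 of its 4 genes were higher and 1 lower (median 0.14). Its outer enzyme Cpt1a, the rate-limiting entry step, had 39.7, 68.5, 68.6 and 68.9 CPM in βNrf2KO pools 1 to 4, against 40.9, 46.3 and 76.3 CPM in control pools 1, 2 and 4. The level in βNrf2KO pool 1 was close to control pools 1 and 2, while the other 3 βNrf2KO pools were nearly equal and below control pool 4. The log2 fold change was 0.17 ± 0.25 (edgeR adjusted p = 0.818); without control pool 1 it was 0.00 and without control pool 4 it was 0.49. Cpt1c, a relative known from brain that sits in the endoplasmic reticulum, had 13.4, 15.4, 16.1 and 15.9 CPM in βNrf2KO pools and 13.0, 25.6 and 15.1 CPM in control pools. Only control pool 2 stood out among these 7, and the log2 fold change was -0.23 ± 0.24 with that pool and 0.11 without it.

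Cpt2, which hands the chain back to coenzyme A inside the mitochondrion, had 17.2, 20.1, 24.3 and 27.0 CPM in βNrf2KO pools 1 to 4, against 11.6, 13.7 and 23.7 CPM in control pools 1, 2 and 4. Control pools 1 and 2 lay below every βNrf2KO pool, and control pool 4 lay among them. Its log2 fold change was 0.44 ± 0.26 (edgeR adjusted p = 0.598), and leaving out a control pool gave 0.24 (pool 1) to 0.81 (pool 4). Slc25a20, the carrier that exchanges acylcarnitine for carnitine at the inner membrane, averaged 7.64 ± 1.42 CPM in βNrf2KO and 7.02 ± 2.32 CPM in control islets.

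The ratio of Cpt1a to Cpt1c counts, which does not depend on library size, was 2.95, 4.44, 4.26 and 4.34 in βNrf2KO pools 1 to 4 and 3.16, 1.81 and 5.07 in control pools 1, 2 and 4. The groups overlapped, with a log2 difference of 0.36 (exact two-sided permutation p = 0.514 over 35 splits of the pools, adjusted p = 0.686 over 4 ratios). The smallest p that 4 against 3 pools allow is 0.0571.

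The acyl-CoA dehydrogenases carry out the first oxidation and differ in the chain length they accept; 3 of 5 were higher and 2 lower, with a median of 0.12. Acadsb, the short and branched chain enzyme that also acts in isoleucine breakdown (chr7:131410601-131448944, plus strand, GRCm38), had 33.4, 39.0, 38.5 and 39.6 CPM in βNrf2KO pools 1 to 4, against 23.8, 20.6 and 32.3 CPM in control pools 1, 2 and 4. All 4 βNrf2KO pools were above all 3 control pools, though pool 1 of βNrf2KO was only just above control pool 4. The means were 37.6 ± 2.87 CPM in βNrf2KO and 25.6 ± 6.03 CPM in control islets (SD, n = 4 and 3). The log2 fold change of 0.56 ± 0.19 had an unadjusted p of 0.0117 and did not pass after adjustment over all genes (edgeR adjusted p = 0.571).

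Each of the 3 pairs of pools with the same number showed Acadsb higher in βNrf2KO, by 0.49, 0.92 and 0.30 in log2 CPM for numbers 1, 2 and 4. Leaving out 1 pool at a time gave log2 fold changes between 0.42 and 0.76, with the lower value reached without control pool 2. Acinar markers, which come from the exocrine pancreas around the islets, summed over 12 genes to 103, 225, 69.8 and 53.6 CPM in βNrf2KO pools 1 to 4, against 410, 153 and 64.7 CPM in control pools 1, 2 and 4, with 9 of the 12 above 1 CPM. The acinar level entered the fit as a covariate, taken as the mean log2 CPM of the 12 markers and not as this sum. With it the log2 fold change of Acadsb was 0.44 (edgeR adjusted p = 0.871). In that fit 0 of the 32 genes had an unadjusted p under 0.05, where 1.92% of all genes were higher and 2.55% lower at that level. A count of 0 is near that background. In bulk islets, fewer cells of a type and less RNA per cell cannot be told apart.

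Of the straight-chain dehydrogenases, Acadl (long chains) averaged 21.1 ± 3.23 CPM in βNrf2KO and 17.0 ± 2.5 CPM in control islets, with a log2 fold change of 0.31 ± 0.19 (edgeR adjusted p = 0.603). Acadm (medium chains) averaged 7.83 ± 0.780 CPM in βNrf2KO and 7.20 ± 1.10 CPM in control islets, and Acads (short chains) 12.6 ± 2.34 CPM in βNrf2KO and 13.6 ± 3.87 CPM in control islets. Acadvl (very long chains) averaged 13.4 ± 1.78 CPM in βNrf2KO and 14.7 ± 2.35 CPM in control islets, but 42.9% of its exon bases lie under exons of Dvl2 on the other strand. The strand setting of the counting is not given in the sources used here, so reads of the overlapping genes cannot be told apart there.

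The middle and last steps of the spiral are carried out for long chains by the trifunctional protein, a complex of the inner membrane that joins hydration, second oxidation and thiolysis. Of the 5 genes of these steps 3 were higher and 2 lower (median 0.18). Its α-subunit is encoded by Hadha and its β-subunit, the thiolase, by Hadhb. Hadhb (chr5:30155248-30184593, plus strand, GRCm38) had 32, 32.9, 31.8 and 36.7 CPM in βNrf2KO pools 1 to 4, against 25.1, 21.0 and 31.0 CPM in control pools 1, 2 and 4. All βNrf2KO pools were above all control pools, by a small margin over control pool 4, and the means were 33.3 ± 2.31 CPM in βNrf2KO and 25.7 ± 5.05 CPM in control islets (SD, n = 4 and 3). The log2 fold change was 0.37 ± 0.18 (edgeR unadjusted p = 0.0565, adjusted p = 0.571). Hadha (chr5:30118304-30155162, minus strand) had 66.8, 74.6, 75.6 and 79.6 CPM in βNrf2KO pools, against 63.3, 55.2 and 77.2 CPM in control pools. Here the groups overlapped through control pool 4, and the log2 fold change was 0.18 ± 0.16 (edgeR adjusted p = 0.695).

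The ratio of Hadha to Hadhb counts was 2.09, 2.27, 2.38 and 2.17 in βNrf2KO pools 1 to 4, against 2.52, 2.63 and 2.49 in control pools 1, 2 and 4. Every βNrf2KO pool had a lower ratio than every control pool, and control pools 1, 2 and 4 were close to each other on this measure although their levels differed. The means were 2.23 ± 0.125 in βNrf2KO and 2.55 ± 0.0742 in control islets, a log2 difference of -0.20 (exact two-sided permutation p = 0.0571, the smallest this design allows; adjusted p = 0.114 over 4 ratios). Leaving out each pool in turn gave -0.23 to -0.17, and the ratio was lower in βNrf2KO in all 3 pairs of numbers, with a mean of -0.23.

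The subunit genes lie head to head on chromosome 5 and are transcribed in opposite directions. Between their 5′ ends lie 85 bases in the files' gene models and 272 bases in RefSeq. The RefSeq windows from 250 bases before to 50 bases after each gene's start (GRCm38.p6) are chr5:30154931-30155230 on the minus strand for Hadha and chr5:30155003-30155302 on the plus strand for Hadhb. They are printed 5′ to 3′ to show the sequence that lies upstream of both RefSeq starts; capitals mark the 228 bases that the windows have in common, read from opposite strands. Both RefSeq starts lie outside the capitals.
Hadha: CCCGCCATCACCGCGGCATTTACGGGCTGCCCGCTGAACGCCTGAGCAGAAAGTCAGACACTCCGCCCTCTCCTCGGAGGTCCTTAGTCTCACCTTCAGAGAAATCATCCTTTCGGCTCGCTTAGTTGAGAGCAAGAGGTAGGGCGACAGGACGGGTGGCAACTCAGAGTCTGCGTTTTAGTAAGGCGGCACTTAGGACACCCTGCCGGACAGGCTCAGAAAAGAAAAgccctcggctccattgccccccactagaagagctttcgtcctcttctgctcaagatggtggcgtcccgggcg
Hadhb: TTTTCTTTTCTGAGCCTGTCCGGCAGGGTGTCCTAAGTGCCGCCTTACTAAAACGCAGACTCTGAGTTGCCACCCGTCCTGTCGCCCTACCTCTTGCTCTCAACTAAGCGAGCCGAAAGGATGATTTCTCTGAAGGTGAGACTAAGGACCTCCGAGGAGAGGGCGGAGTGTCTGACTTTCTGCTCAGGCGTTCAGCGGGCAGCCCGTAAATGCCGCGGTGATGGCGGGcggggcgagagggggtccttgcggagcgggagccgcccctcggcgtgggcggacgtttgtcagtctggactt

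Hadh encodes the short-chain 3-hydroxyacyl-CoA dehydrogenase of the second oxidation (chr3:131233419-131272101, minus strand). It is abundant in β-cells, and its loss in humans causes excess insulin secretion. Hadh had 234, 211, 213 and 219 CPM in βNrf2KO pools 1 to 4, against 178, 123 and 214 CPM in control pools 1, 2 and 4. The βNrf2KO pools lay close together, control pool 4 lay among them, and control pools 1 and 2 lay below. The means were 219 ± 10.6 CPM in βNrf2KO and 172 ± 45.8 CPM in control islets (SD, n = 4 and 3), with a log2 fold change of 0.35 ± 0.19 (edgeR adjusted p = 0.575). It was 0.16 without control pool 2 and 0.54 without control pool 4. The summed β-cell markers, given above, had the same order among the control pools, lowest in pool 2 and highest in pool 4; their part in this difference was not tested.

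**Figure D2:**
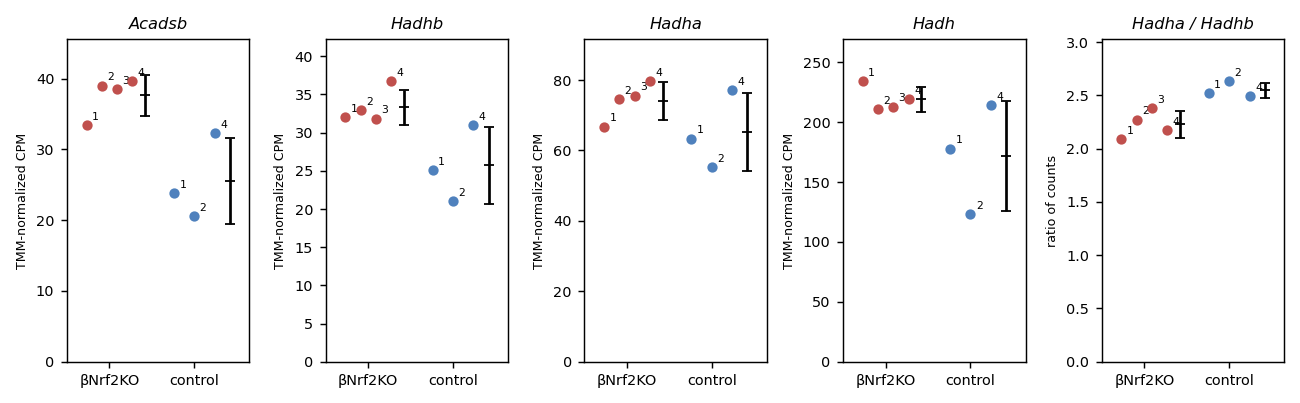
TMM-normalized CPM of Acadsb, Hadhb, Hadha and Hadh, and the ratio of Hadha to Hadhb counts, by pool, with the pool number beside each point and the mean ± SD at the right of each group (n = 4 βNrf2KO and 3 control pools). Control pool 4 lies close to or among the βNrf2KO pools in the 4 gene panels, while in the ratio panel it lies with the other control pools at 2.49.

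Echs1, the hydratase for short chains, was the steadiest of the 32 genes, with a coefficient of variation of 4.85% over the 7 pools. It averaged 11 ± 0.690 CPM in βNrf2KO and 11.3 ± 0.288 CPM in control islets. Acaa2, the mitochondrial thiolase for medium chains, had 5.89, 5.57, 5.77 and 5.81 CPM in βNrf2KO pools and 5.68, 8.71 and 7.64 CPM in control pools. Control pool 1 lay among the βNrf2KO pools and the other control pools above them, with a log2 fold change of -0.35 ± 0.22 (edgeR adjusted p = 0.620).

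Unsaturated chains need isomerases and a reductase before they can go through the spiral; 1 of these 3 genes was higher and 2 were lower (median -0.06). Decr1, the dienoyl-CoA reductase, had 3.85, 5.19, 5.53 and 6.03 CPM in βNrf2KO pools 1 to 4 and 4.54, 5.02 and 6.91 CPM in control pools 1, 2 and 4. The groups overlapped over nearly their whole range (log2 fold change -0.10 ± 0.26, edgeR adjusted p = 0.907). The isomerases Eci1 and Eci2 had log2 fold changes of -0.06 ± 0.27 and 0.05 ± 0.20. All 3 genes had lower levels in pool 1 of βNrf2KO than in the other βNrf2KO pools.

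Electron transfer flavoprotein is a dimer of the products of Etfa and Etfb, and Etfdh passes its electrons to ubiquinone; 1 of the 3 genes was higher and 2 were lower (median -0.01). Etfa had 19.2, 22.3, 25.5 and 22.7 CPM in βNrf2KO pools 1 to 4, against 17.1, 15.6 and 27.9 CPM in control pools 1, 2 and 4. The groups overlapped, with a log2 fold change of 0.15 ± 0.22 (edgeR adjusted p = 0.820) and 0.46 without control pool 4. Etfb was counted at only 7, 11, 2 and 4 reads in βNrf2KO pools, against 9, 12 and 20 reads in control pools. That was 0.375, 0.515, 0.0938 and 0.147 CPM in βNrf2KO pools and 0.511, 0.792 and 0.665 CPM in control pools. The pools touched through pool 2 of βNrf2KO and control pool 1, and βNrf2KO pool 3, with 2 reads, was under the limit of 3 counts. The log2 fold change was -1.22 ± 0.62 (edgeR adjusted p = 0.571).

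This level of Etfb cannot be set beside that of Etfa. Of its exon bases, 58.2% are shared with Gm45233 and Mir7051 on the same strand, and how the authors counted reads that lie in several genes is not given in the sources used here. Gm45233 was itself low, at 9, 5, 4 and 4 reads in βNrf2KO pools 1 to 4, against 7, 4 and 9 reads in control pools 1, 2 and 4. The ratio of Etfa to Etfb counts was 51.3, 43.4, 272 and 154 in βNrf2KO pools, against 33.4, 19.7 and 42.0 in control pools. All βNrf2KO pools were above all control pools, with a log2 difference of 1.70 (exact two-sided permutation p = 0.0571, the smallest possible; adjusted p = 0.114 over 4 ratios), and it rests on the few Etfb counts. Etfdh averaged 15.8 ± 2.21 CPM in βNrf2KO and 15.9 ± 3.21 CPM in control islets.

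Of the 4 peroxisomal genes, 3 were higher and 1 lower, with a median of 0.07. Acox3, the oxidase for branched chains, had 14.6, 16.7, 12.9 and 20.1 CPM in βNrf2KO pools 1 to 4, against 13.1, 25.5 and 20.6 CPM in control pools 1, 2 and 4. The groups overlapped, with control pool 2 the highest. The log2 fold change was -0.29 ± 0.24 (edgeR adjusted p = 0.681), and leaving out a control pool gave -0.52 (pool 1) to -0.07 (pool 2). Ehhadh, the L-bifunctional enzyme, averaged 4.64 ± 0.171 CPM in βNrf2KO and 4.14 ± 1.05 CPM in control islets, and Hsd17b4, the D-bifunctional enzyme, averaged 9.76 ± 1.68 CPM in βNrf2KO and 9.25 ± 0.735 CPM in control islets. Acaa1a, a peroxisomal thiolase, averaged 16.0 ± 3.5 CPM in βNrf2KO and 15.3 ± 4.58 CPM in control islets. Its near-identical copy Acaa1b had 2 to 10 counts per pool, and reads that fit both may have been split or dropped.

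The 3 ketone body enzymes had log2 fold changes near 0, with 1 higher and 2 lower (median -0.01). Oxct1, which activates acetoacetate and is the rate-limiting step of ketone use, had 32.6, 39.6, 43.6 and 41.6 CPM in βNrf2KO pools 1 to 4, against 34.1, 33.0 and 47.8 CPM in control pools 1, 2 and 4. Bdh1, which interconverts the main ketone bodies, had 5.51, 7.49, 5.63 and 6.98 CPM in βNrf2KO pools, against 6.13, 5.08 and 8.01 CPM in control pools. Acat1, the thiolase that splits acetoacetyl-CoA, had 23.4, 28.9, 29.5 and 31.4 CPM in βNrf2KO pools, against 26.0, 29.2 and 37.1 CPM in control pools. In all 3 genes control pool 4 was the highest of the 7 pools and the groups overlapped. The log2 fold changes were 0.04 ± 0.18 for Oxct1, -0.01 ± 0.24 for Bdh1 and -0.12 ± 0.18 for Acat1 (edgeR adjusted p of 0.951, 0.995 and 0.819). The ratio of Oxct1 to Bdh1 counts was 5.92, 5.29, 7.75 and 5.96 in βNrf2KO pools and 5.56, 6.49 and 5.97 in control pools (log2 difference 0.04, exact two-sided permutation p = 0.971).

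**Figure D3:**
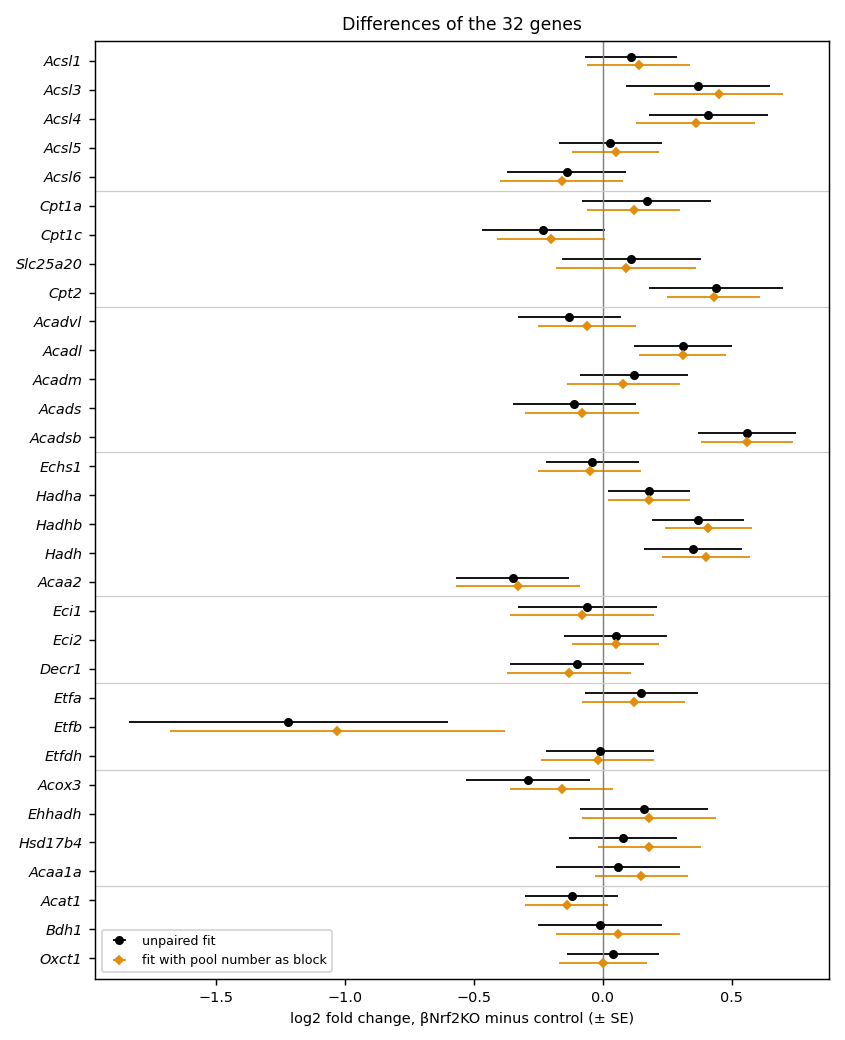
Log2 fold change (βNrf2KO minus control) ± SE of the 32 genes, from the unpaired edgeR fit (black circles) and from the blocked fit (orange diamonds). No gene passed an adjusted p of 0.05 in either fit; Acadsb stands farthest to the right at 0.56 in both, and Etfb, with 2 to 20 counts per pool, farthest to the left.

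Pools with the same number were also treated as pairs (a block in the fit). βNrf2KO pool 3 has no control pool of its number, so this difference rests on the pairs numbered 1, 2 and 4. In that fit 0 of the 32 genes passed the adjusted threshold, while 14 of all genes did (0.0704%). The number at an unadjusted p under 0.05 was then 4, all higher in βNrf2KO, against 1 in the unpaired fit; over all genes 6.02% were higher and 6.12% lower at that level. The 4 genes were Acadsb at 0.56 ± 0.18, Hadhb at 0.41 ± 0.17, Cpt2 at 0.43 ± 0.18 and Hadh at 0.40 ± 0.17, with edgeR adjusted p of 0.288, 0.371, 0.380 and 0.393. Taken pair by pair, 9 of the 32 genes were higher in βNrf2KO in all 3 pairs (Acsl3, Cpt2, Acadl, Acadsb, Hadha, Hadhb, Hadh, Hsd17b4 and Acaa1a), where 19.1% of all genes were. Etfb and Acat1 were lower in all 3 pairs, where 17.9% of all genes were.

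The spread within each group had a shape shared by many of the genes. Among control pools, pool 4 was the highest for 21 of the 32 genes (65.6%, against 33.2% of all genes tested) and pool 2 the lowest for 18 (56.2%, against 37.5%). Among βNrf2KO pools, pool 1 was the lowest for 18 (56.2%, against 32.8%) and pool 4 the highest for 13 (40.6%, against 22.5%). Summed over the 32 genes, the level was 792, 843, 845 and 860 CPM in βNrf2KO pools 1 to 4, against 702, 627 and 877 CPM in control pools 1, 2 and 4. The sums overlapped through control pool 4. The pools low in these genes, control 2 and control 1 and then βNrf2KO 1, were those with the largest shares of mitochondrial genome RNA. The smallest shares were in βNrf2KO 4 and control 4. With that genome left out of the counts, the median log2 fold change of the 32 genes stayed at 0.05. That fit bears on normalization only, and the part of the share in the differences was not tested. Mesenchyme markers (7 of 7 above 1 CPM) summed to 505 to 1005 CPM in βNrf2KO pools, against 1504, 1375 and 569 CPM in control pools 1, 2 and 4, and their part was not tested either.

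The counts moved most with control pool 4. Without it, 23 of the 31 genes that passed the filter were higher and 8 lower, the median log2 fold change was 0.23, and 5 had an unadjusted p under 0.05, all higher, where 7.64% of all genes were higher and 9.32% lower at that level. These were Acadsb at 0.76, Cpt2 at 0.81, Hadh at 0.54, Hadhb at 0.53 and Etfa at 0.46, and the smallest edgeR adjusted p among the 32 was 0.160. Without control pool 2, the genes were split into 16 higher and 16 lower, with a median of -0.00. Without control pool 1, Acsl3 (0.66) and Acadsb (0.51) were higher and Acox3 (-0.52) and Acaa2 (-0.50) lower at an unadjusted p under 0.05, where 6.75% of all genes were higher and 7.38% lower. The shares without control pool 1 are near the background. Without control pool 4, 5 of 31 genes higher is a larger share than the 7.64% of all genes, and 0 were lower. None of the genes passed adjustment in either fit.

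**Figure D4:**
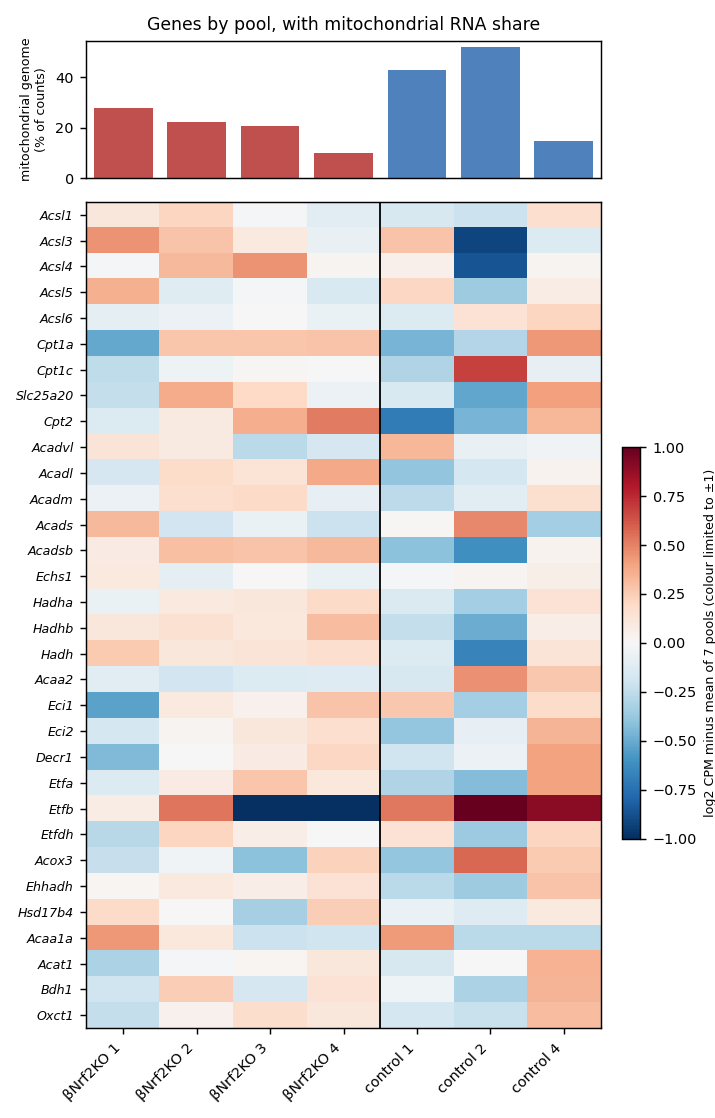
Log2 CPM of the 32 genes in each pool minus the mean of the 7 pools, red for higher and blue for lower with colour limited to 1 on either side, below the percentage of counts from the mitochondrial genome. Control pools 1 and 2, with 43.0% and 51.8% of counts from that genome, have median deviations of -0.16 and -0.25 over the 32 genes, and control pool 4 has 0.17.

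Genes of neighbouring pathways, taken from lists chosen by function, gave a similar picture, and none passed adjustment. Of 25 tested among other oxidation and ketone enzymes, 15 were higher and 10 lower, and the median difference was 0.07 on the log2 scale. Slc22a5, the carnitine transporter of the plasma membrane, had 6.74, 7.16, 5.53 and 5.62 CPM in βNrf2KO pools, against 7.33, 12.1 and 8.84 CPM in control pools. Its βNrf2KO pools lay wholly below the control pools, and the log2 fold change was -0.59 ± 0.24 (edgeR adjusted p = 0.571). Of the 25 genes, 4 had βNrf2KO pools wholly above the control pools and 1 wholly below, against 3.19% and 3.81% of all genes. Phyh, which starts α-oxidation of phytanic acid, had 0.54 ± 0.24 and Crot, the peroxisomal carnitine transferase, 0.38 ± 0.20 on the log2 scale. The groups overlapped for Phyh, and for Crot the βNrf2KO pools lay wholly above the control pools. Cpt1b, the muscle isoform of the entry step, was low at 1.21 CPM in βNrf2KO and 1.83 CPM in control islets.

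Among 20 regulators of fatty acid oxidation, 9 were higher and 11 lower, with a median of -0.08. Acacb, whose product malonyl-CoA inhibits Cpt1a, had 8.72, 8.80, 8.81 and 8.86 CPM in βNrf2KO pools, against 9.94, 26.1 and 9.70 CPM in control pools. The βNrf2KO pools lay below all control pools by a small margin, apart from control pool 2, which was far above (log2 fold change -0.79 ± 0.32, edgeR adjusted p = 0.571). Prkaa1, a catalytic subunit of AMP-activated protein kinase, had 74.7, 80.2, 102 and 92.6 CPM in βNrf2KO pools, against 70.0, 39.4 and 71.3 CPM in control pools. Its βNrf2KO pools lay wholly above the control pools (0.54 ± 0.22, edgeR adjusted p = 0.571), and Rxrb, a partner of nuclear receptors, had -0.40 ± 0.20. Of the 20 regulators, 1 lay wholly above and 1 wholly below, against 3.19% and 3.81% of all genes, so these counts lie near the background. Ppara, the receptor that switches on these genes in liver, was low, at 0.672 CPM in βNrf2KO and 1.02 CPM in control islets. Ppard, another PPAR receptor, was at 52.8 CPM in βNrf2KO and 52.3 CPM in control islets. Of 12 known PPAR-alpha targets tested outside the 32 genes, 5 were higher and 7 lower, with a median of -0.12. They included Acot1, a thioesterase, at -0.65 ± 0.34, with βNrf2KO pools below control pools, and Creb3l3, a liver transcription factor, at -0.33 ± 0.37. Of these 12, 1 gene lay wholly above and 1, Acot1, wholly below, where 3.19% and 3.81% of all genes did.

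On the supply side, 11 of 20 genes of fatty acid uptake, binding and thioesterases were higher and 9 lower (median 0.01). Fabp7 and Fabp4, fatty acid binding proteins, had log2 fold changes of -1.06 ± 0.37 and -0.79 ± 0.32, and Slc27a4, a transport protein, 0.39 ± 0.18. Fabp4 is also a marker of adipocytes and capillary endothelium: the 5 adipocyte markers summed to 0.535 to 1.07 CPM in βNrf2KO and 0.631 to 1.06 CPM in control pools with none above 1 CPM, and the 5 endothelial markers to 878 to 1181 CPM in βNrf2KO and 838 to 944 CPM in control pools; their part was not tested. In lipolysis and lipid droplets, 7 of 13 genes were higher and 6 lower (median 0.14), with Hilpda, an inhibitor of lipolysis, at 0.99 ± 0.48, Dgat2, which makes triglyceride, at 0.60 ± 0.35 and Mgll, monoglyceride lipase, at -0.48 ± 0.22. In fatty acid synthesis 8 of 16 were higher and 8 lower (median 0.02), with Hacd3 at 0.53 ± 0.23, Elovl6 at 0.50 ± 0.23 and Scd2 at 0.47 ± 0.22, enzymes of elongation and desaturation. Slc27a4, Dgat2 and Scd2 had βNrf2KO pools wholly above the control pools, and the groups overlapped for the other genes named here. That is 1 gene in each list of 20, 13 and 16, where 3.19% of all genes lay wholly above. In the uptake list 1 gene, Acot1, given above, lay wholly below, where 3.81% of all genes did. Such counts lie near the background. The edgeR adjusted p of these genes lay between 0.571 and 0.592.

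Promoter sequence was described for the 28 genes with a RefSeq window of 300 bases (GRCm38.p6). The core of the antioxidant response element, the site Nrf2 is known to bind, was searched as TGACNNNGC on both strands and lay in the windows of 2 of 28 genes (7.14%), against 14% of 27025 genes. The genes were Acsl6 (chr11:54303574-54303873, plus strand) and Ehhadh (chr16:21787785-21788084, minus strand), with matches that begin at positions -17 and -165 from the gene's start. They are printed 5′ to 3′ to show the matches, which capitals mark.
Acsl6: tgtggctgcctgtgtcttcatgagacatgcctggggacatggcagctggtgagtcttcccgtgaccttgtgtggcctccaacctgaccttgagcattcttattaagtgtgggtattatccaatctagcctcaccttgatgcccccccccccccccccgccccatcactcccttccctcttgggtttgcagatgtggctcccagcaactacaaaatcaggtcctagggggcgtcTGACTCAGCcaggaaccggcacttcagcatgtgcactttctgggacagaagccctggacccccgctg
Ehhadh: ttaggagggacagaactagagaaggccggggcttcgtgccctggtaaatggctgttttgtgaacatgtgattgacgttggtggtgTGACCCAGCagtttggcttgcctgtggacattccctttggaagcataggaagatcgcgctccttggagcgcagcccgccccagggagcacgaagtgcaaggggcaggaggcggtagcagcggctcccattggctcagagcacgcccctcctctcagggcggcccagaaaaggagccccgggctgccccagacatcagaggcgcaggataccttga
Acsl6 and Ehhadh had log2 fold changes of -0.14 ± 0.23 and 0.16 ± 0.25 (edgeR adjusted p of 0.831 and 0.835). A direct repeat of AGGTCA spaced by 1 base, the textbook PPAR element, had 0 matches in the 28 windows and was in 0.0481% of all genes' windows. A match is a run of letters and not a shown binding site, and these windows say nothing of sites farther away.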

How the data were processed

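RNA of mouse islets was measured in 4 βNrf2KO and 3 control pools. Deposited were raw counts for each gene, which the authors made with STAR 2.5.2b and featureCounts (Subread 1.5.2) after bcl2fastq 2.20 and Trimmomatic 0.36, per the submitters' processing notes. The notes name a newer mouse build, but 44858 (91.4%) of the 49056 IDs also found in GENCODE M21 lie at exactly its positions, so coordinates are GRCm38 as the files give them. The reads' strand setting and the treatment of reads with several matches are not given in the sources used here. Symbols from the reference table matched 48970 IDs and left 345 unmatched. The Cre entry did not enter library sizes or any test. A combined table was not used here.

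The gene test was edgeR 4.0.16 under R 4.3.3 (data.table, version 1.17.8), with TMM normalization, filterByExpr by group, robust quasi-likelihood fit and a two-sided test; p-values were adjusted after Benjamini and Hochberg over 19893 genes, with a threshold of 0.05. A positive log2 fold change means higher in βNrf2KO, and its error is the SE of the fit. P-values measure the spread between pools, not animals. The common biological coefficient of variation was 0.280. A count of 3 was taken as the limit that 0 counts allow. Without TMM factors it was 0.144 to 0.165 CPM in βNrf2KO and 0.118 to 0.139 CPM in control pools. These values were scaled to total counts alone, so they are not on the scale of the genes' CPM (TMM factors 0.625 to 1.31). The limit covers counting error only: without molecular identifiers, reads are not separate molecules. The method was tested on simulated counts. Ratios were compared by exact permutation tests over 35 splits.

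After removal of group means, the correlation over genes was 0.376 between the pools numbered 1, 0.229 between those numbered 2 and 0.323 between those numbered 4. Pools of unlike number gave -0.353 to 0.241. The value of 0.241, between βNrf2KO pool 3 and control pool 4, was above that of the pools numbered 2. The labels do not say what the numbers stand for, so the pairing rests on these correlations only, and they do not establish it. Genes are not independent replicates.

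The genes and lists were chosen with earlier results of these data known. Values per pool are given for genes whose groups did not overlap or had an unadjusted p under 0.05, for the smallest p in each role and for both members of each ratio; of each neighbouring list, up to 3 genes with the smallest p are named. Hadh, Acaa2, Acsl1, Acsl3, Cpt1b, Ppara and Ppard were named beyond this rule with their values seen. Some genes that the rule names are not reported here. Alternatives were RLE size factors, the mitochondrial genome left out, no filter, a minimum of 1 CPM in 3 pools, voom with quality weights (limma 3.58.1), DESeq2 1.42.0, the pool number as a block, the acinar level as a covariate, each pool left out, and a threshold of 0.1.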

Additional observations from a re-analysis of the deposited data

Results flagged for a closer look

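In pool 1 of βNrf2KO, Cpt1a lay far below the other 3 βNrf2KO pools, with a gap of 0.990 of the group's whole range on the log2 scale (39.7 CPM, against 68.5, 68.6 and 68.9 CPM in pools 2, 3 and 4). The ratio of Cpt1a to Cpt1c was lowest in the same pool, with a gap of 0.898 of the range, and so was Acadsb, with a gap of 0.838 (33.4 CPM, against 38.5 to 39.6 CPM in the other βNrf2KO pools). All gaps were taken on log2 values, and each is above the critical value of Dixon's test for 4 samples. Of 36 quantities tested, 3 passed it, and chance passes about 1 group in 20. The Cre recombinase sequence, outside the gene tests, had 166 counts over the βNrf2KO pools and 0 in the control pools.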

How the results depend on the processing

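None of the 32 genes passed an adjusted p of 0.05, or of 0.1, under any alternative run. Acadsb had an unadjusted p under 0.05 in each of them except with the acinar covariate. The count over all genes was 0 in the unpaired edgeR fit, 2 with DESeq2, 14 with the pool number as a replicate block and 0 to 1 when 1 pool was left out. The median log2 fold change of the 32 genes, 0.05, ran from -0.00 to 0.23 when 1 pool was left out. The block changed no other call than those given above; it turned Bdh1 to 0.06, Oxct1 to -0.00 and the log2 difference of the Oxct1 to Bdh1 ratio to -0.07. Limma-voom turned Acsl5 to -0.06, Etfdh to 0.00 and Acaa1a to -0.02. The acinar covariate turned Cpt1a to -0.02, Acadvl to 0.02, Acads to 0.03, Eci2 to -0.14, Etfa to -0.04 and Oxct1 to -0.11. Leaving out 1 pool reversed Acsl5 (-0.11 to 0.15), Eci1 (-0.22 to 0.07), Decr1 (-0.22 to 0.11), Etfdh (-0.17 to 0.10), Acaa1a (-0.10 to 0.33), Bdh1 (-0.15 to 0.19), Oxct1 (-0.06 to 0.23), Acadvl (-0.20 to 0.01), Eci2 (-0.11 to 0.27), Cpt1c (-0.41 to 0.11), Slc25a20 (-0.08 to 0.41), Acads (-0.29 to 0.13), Etfa (-0.01 to 0.46), Acat1 (-0.23 to 0.04) and the ratios of Cpt1a to Cpt1c (-0.02 to 0.72) and Oxct1 to Bdh1 (-0.07 to 0.12). The cause was not tested. Of the 32 genes, 17 never reversed and 15 did. Etfb did not pass the 1 CPM filter, nor without βNrf2KO pool 2 or control pool 4. Depth limits Etfb, at 2 to 20 counts, more than the other genes, which had 52 to 6435 counts per pool.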
